A study of Mus musculus with 2 samples.

Results

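Chemokine ligand genes, 10 in all, were followed across the cells of the mouse retina: Ccl2, Ccl7, Ccl12, Ccl3, Ccl4, Ccl6, Ccl9, Cxcl1, Cxcl2 and Cxcl16. They were taken by symbol as a list, and all 10 are among the 31053 genes of the files. The OIR library came from C57BL/6 wild-type mice with oxygen-induced retinopathy (OIR), kept as pups in 75% oxygen between postnatal days 7 and 12 and then in room air. The control library came from C57BL/6 wild-type mice labelled control, of the same age. Both groups were killed at postnatal day 17, the retinas of 6 mice were pooled into 1 library per group, and cells held by magnetic beads against CD11b, a surface protein of myeloid cells, were sequenced in droplets. Cell types were set by marker genes, with every chemokine ligand gene left out of the clustering, so the 10 genes did not define the cells they are described in.

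Chemokines are small secreted proteins that bind G protein-coupled receptors on leukocytes and draw those cells along a gradient. Ccl2, Ccl7 and Ccl12 act through Ccr2 of inflammatory monocytes, and Ccl3 and the mouse genes Ccl6 and Ccl9 through Ccr1. Ccl4 is a close relative of Ccl3. Cxcl1 and Cxcl2 recruit neutrophils through Cxcr2, and Cxcl16 is made as a membrane-bound protein that binds Cxcr6. In the retina the known sources are microglia, the resident macrophages of neural tissue, border macrophages along vessels and membranes, infiltrating monocytes, and Müller glia, the radial support cells of the retina.

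Each group is 1 library, so no difference below has a replicate check and no test between groups was made. The OIR library had 49773742 UMIs over 7283 barcodes, and the control library 50081145 over 10826. A UMI (unique molecular identifier) stands for 1 captured RNA molecule. After filtering, 6132 OIR cells with a median of 2828.5 UMIs and 8585 control cells with a median of 1648 UMIs were kept, and the libraries shared 30 of these barcodes. Although the samples are labelled as retinal microglia, rod-like cells made up 46.5% of OIR cells and 77.1% of control cells. The classes used here held 586 OIR and 822 control microglia-like cells, and 81 OIR and 31 control border macrophage-like cells. They also held 30 OIR and 12 control monocyte-like cells, and of Müller glia-like cells 392 in OIR and 261 in control. Levels are a gene's UMIs as a part of all UMIs of the class, on the counts-per-million scale (CPM). Intervals are at 95% and take in only the error of counting. A gene was called 2-fold apart where it reached 20 CPM in 1 library, differed at least 2-fold and had an interval of the log2 ratio, OIR over control, that excluded 0.

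Of the genes, 8 lie on chromosome 11 of mouse build mm10. Ccl2 (chr11:82035571-82037453), Ccl7 (chr11:82045712-82047525) and Ccl12 (chr11:82101845-82103400) follow each other on the plus strand. Ccl9 (chr11:83572919-83578636) and Ccl6 (chr11:83587882-83593087) lie on the minus strand beside Ccl3 (chr11:83647844-83649355, minus) and Ccl4 (chr11:83662584-83664683, plus). Cxcl16 (chr11:70453983-70459984, minus) stands apart from them, and Cxcl1 (chr5:90891241-90893115, plus) and Cxcl2 (chr5:90903871-90905938, plus) are neighbours on chromosome 5 (14.7 kb from the first start to the last end). All 10 are annotated as protein-coding. For 3 of them, the last 500 bases of the transcripts shared a run of 31 or more bases with another gene. Cxcl2 shared a run of 110 bases with Cxcl3, Ccl6 one of 48 bases with Slc17a4 and Ccl9 one of 34 bases with Gm33246. The effect of these runs on the counts was not tested. Cxcl3 itself had 3 UMIs in OIR microglia-like cells and 0 in control ones. Ccl2, Ccl6 and Cxcl16 each overlap a gene on the opposite strand (Gm17268, E230016K23Rik and Zmynd15), and whether the counting used strand is not given in the sources used here.

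Nearly all UMIs of the 6 CC chemokine genes other than Ccl9, and of Cxcl2, sat in myeloid cells of both libraries. Of the 14444 Ccl2 UMIs in kept OIR cells, 96.0% were in myeloid cells, against 98.3% of the 9884 in control cells. Cxcl1 was the exception, with 19.4% of its 242 OIR UMIs and none of its 13 control UMIs in myeloid cells. Cxcl16, with 72.7% of OIR and 44.8% of control UMIs in myeloid cells, and Ccl9, with 68.1% and 82.9%, lay between. The share held by border macrophage-like cells was larger in OIR for all 10 genes, and it was largest for Ccl7, of which they held 70.0% of 3485 UMIs in OIR and 17.8% of 146 UMIs in control. These shares depend on the CD11b selection and on the number and depth of the cells of each class as well as on the level per cell, and border macrophage-like cells were 1.32% of OIR cells and 0.361% of control cells.

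**Figure D1:**
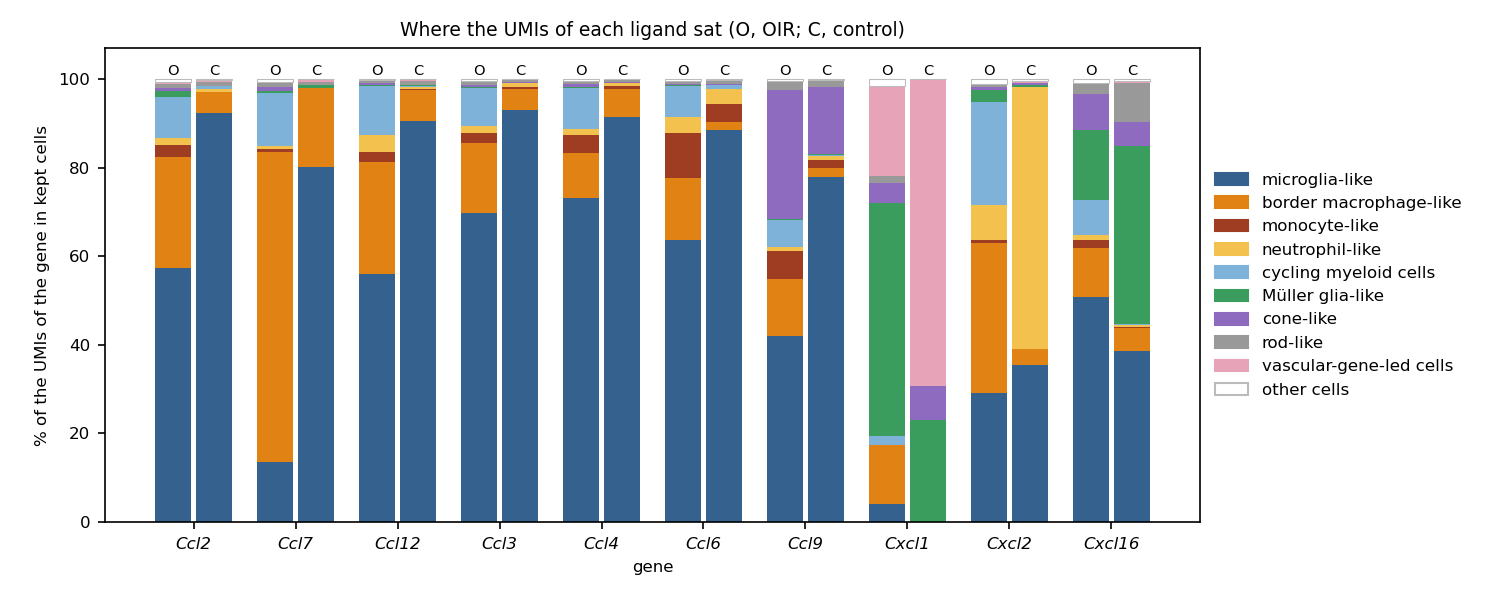
Share of each gene's UMIs (vertical axis, percent of the UMIs in kept cells) that lay in each cell class, with the OIR bar (O) left of the control bar (C) for each gene. Border macrophage-like cells hold 70.0% of Ccl7 in OIR and 17.8% in control, microglia-like cells 13.5% in OIR and 80.1% in control, and Cxcl1 lies mostly outside myeloid cells.

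In microglia-like cells the chemokine genes did not move as a block. Of 9 genes that reached 20 CPM, 3 were called higher in OIR (Ccl7, Cxcl2 and Cxcl16), where 4.85% of all 6044 genes measured in the class were, and 0 were called lower, where 5.24% were. The median log2 ratio of the 9 was -0.13, and that of all genes -0.12. Ccl2, the main Ccr2 ligand, stood at 1439 CPM in OIR and 1401 CPM in control, a log2 ratio of 0.04 (interval -0.00 to 0.08). Ccl12, a Ccr2 ligand of mice, stood at 809 and 888 CPM. Ccl3 and Ccl4, which draw macrophages and T cells, were at 1435 and 1576 CPM in OIR and at 1949 and 1827 CPM in control, so neither differed 2-fold. Ccl6 was at 254 CPM in OIR and 279 CPM in control.

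Ccl7, another Ccr2 ligand, had 82.1 CPM in OIR microglia-like cells (472 UMIs) and 17.95 CPM in control ones (117 UMIs), a log2 ratio of 2.19 (1.90 to 2.50). Cxcl2 had 104 CPM in OIR (597 UMIs) and 11.5 CPM in control (75 UMIs), a log2 ratio of 3.17 (2.83 to 3.54). Cxcl16 had 152 CPM in OIR (875 UMIs) and 61.8 CPM in control (403 UMIs), a log2 ratio of 1.30 (1.13 to 1.47). Ccl9 lay the other way without being called, at 105 CPM in OIR and 191 CPM in control (log2 -0.87, -1.01 to -0.73). Cxcl1 was near its floor, with 10 UMIs in OIR and 0 in control, of which 1 OIR cell held 7.

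Ccl7 and Cxcl2 were carried by few cells, whereas Cxcl16 was spread widely. The 6 OIR cells with most UMIs, 1% of the class, held 46.4% of Ccl7 and 50.4% of Cxcl2 but 11.8% of Cxcl16. In control, the top 8 cells held 73.5% of Ccl7 and 10.2% of Cxcl16, and all but 6 of the 75 UMIs of Cxcl2. Without those cells in both libraries the levels were 45.4 CPM in OIR and 4.84 CPM in control for Ccl7 and 53.7 and 0.936 CPM for Cxcl2, which gives log2 ratios of 3.23 and 5.84. The direction was thus the same without the top 1% of cells. The ratios rose because a larger part of the control UMIs was taken out, which left 31 for Ccl7 and 6 for Cxcl2. In OIR, 29 cells held 95.1% of Ccl7 and 93.8% of Cxcl2, so both still rested on few cells. With each cell thinned to 1500 UMIs, Cxcl16 had a UMI in 94 of 510 OIR cells (18.4%; 47.1% before thinning) and in 67 of 767 control cells (8.74%; 30.3% before). Ccl7 had one in 22 of 510 OIR cells and 12 of 767 control cells, and Ccl2 in 46.1% and 45.4%. Rod-like cells, which should lack these genes, had a Cxcl16 UMI in 0.437% of 1601 thinned OIR cells and 0.543% of 2945 thinned control cells.

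The microglia-like class fell into 6 clusters, whose sizes differed between the libraries, and which are called here by 1 of their 10 leading genes or by the RNA they carry. A Siglech-led state held 48 OIR and 279 control cells, and a Klf2-led state 22 OIR and 270 control cells. A state that carries rod RNA held 112 OIR and 135 control cells, an Mmp12-led state 206 OIR and 11 control cells, a Rgs10-led state 59 OIR and 126 control cells, and a Prdx1-led state 139 OIR cells and 1 control cell. Rod markers summed to 13164 CPM in OIR and 10873 CPM in control cells of the state that carries rod RNA, against 1261 and 701 CPM in the Siglech-led state. The Mmp12-led state was led by Hmox1, Spp1, Mmp12 and Lgals3, genes known from phagocytic and lipid-handling macrophages. Its OIR cells had a median of 15775.5 UMIs and its control cells 11780. Without this state, 1 of the 9 genes was called higher (6.46% of all genes) and 1 lower (5.73%). Ccl7 then had 55.2 CPM in OIR and 18.3 CPM in control (log2 1.59), Cxcl2 23.1 and 11.7 CPM (0.98), Cxcl16 109 and 60.6 CPM (0.85) and Ccl9 90.8 and 191 CPM (-1.07). With the OIR states weighted to the control shares of UMIs, the log2 ratios were 2.57 for Ccl7, 1.82 for Cxcl2 and 0.64 for Cxcl16. This weighting leans on the 22 OIR Klf2-led cells. Their state held 135509 of 5748937 UMIs of the class in OIR but 2295615 of 6517853 in control. These 22 cells had only 29 Ccl7 UMIs, 22 of them in 1 cell, and 12 Cxcl2 UMIs. Without the Mmp12-led cells, Cxcl2 and Cxcl16 were thus under 2-fold and Ccl7 was not, and with the weighting Cxcl2 was over 2-fold again.

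**Figure D2:**
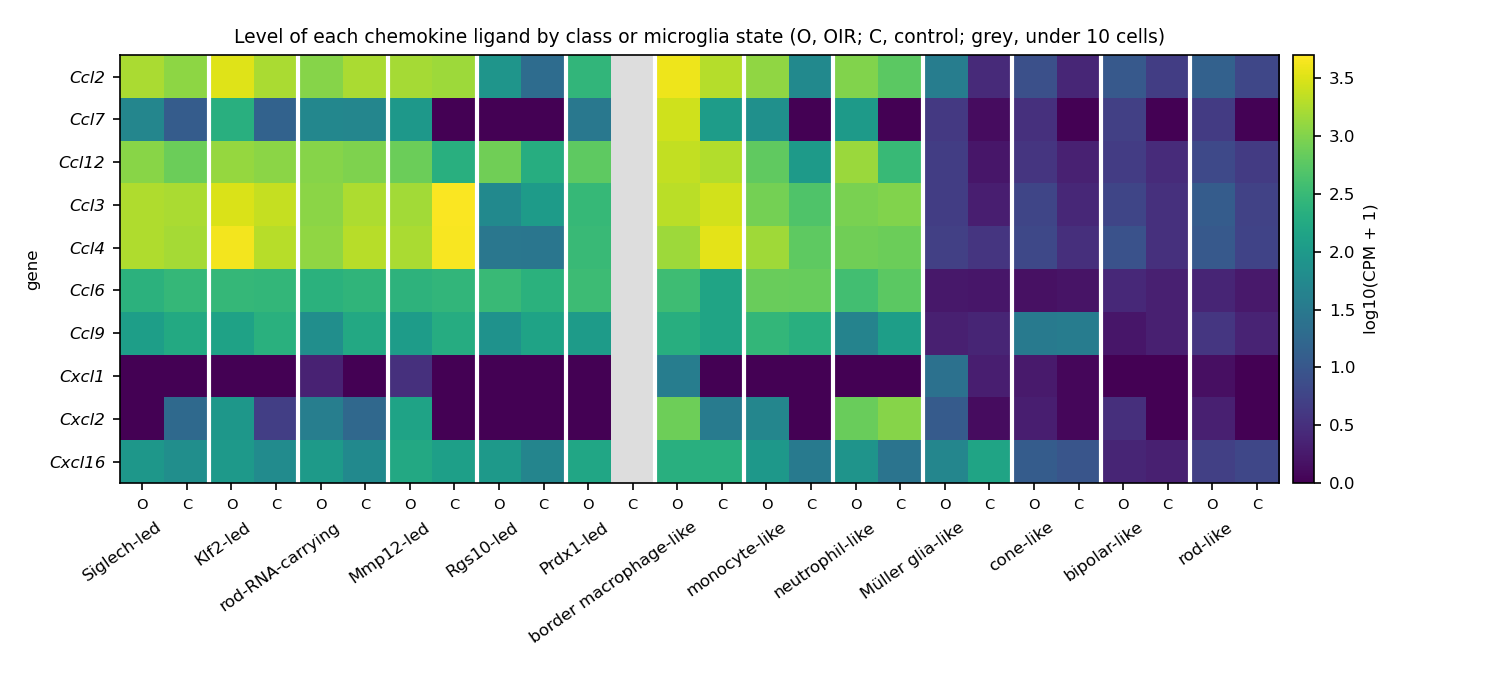
Level of each of the 10 genes (colour, log10 of CPM + 1) in each microglia state and cell class, OIR column (O) left of control column (C); grey marks the 1 control cell of the Prdx1-led state. Ccl2, Ccl3, Ccl4 and Ccl12 are high in most myeloid columns and low in rod-like cells. Exceptions are Rgs10-led cells, where Ccl2, Ccl3 and Ccl4 are low, and control monocyte-like cells, where Ccl2 is. Ccl7 is brightest in OIR border macrophage-like cells and Cxcl2 in control neutrophil-like cells.

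Among microglia states, Ccl2 was highest in Klf2-led cells, with 3358 CPM in OIR and 1680 CPM in control (log2 0.999, just under 2-fold), although the control level was close to that of rod-RNA-carrying cells. It was at 1725 and 1169 CPM in Siglech-led, at 1567 and 1431 CPM in Mmp12-led and at 1082 and 1674 CPM in rod-RNA-carrying cells. In Rgs10-led cells it was at only 85.4 CPM in OIR (9 UMIs) and 19.6 CPM in control (5 UMIs), and in OIR Prdx1-led cells at 268 CPM. The OIR level of Ccl2 was thus above control in some states and below it in another, which is hidden in the near-equal sum. In OIR, Ccl3 and Ccl4 were also highest in Klf2-led and lowest in Rgs10-led cells, with 3055 and 4383 CPM in the first and 56.9 and 28.5 CPM in the other. Ccl4 was called higher in Klf2-led cells (4383 CPM in OIR against 2029 CPM in control, log2 1.11) and lower in Mmp12-led cells (1691 against 4681 CPM, log2 -1.47). Ccl3 was also called lower in Mmp12-led cells (1545 CPM in OIR against 4787 CPM in control, log2 -1.63), where the control side is 11 cells.

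Across the states, Ccl6 was almost flat, and Ccl12 varied over a narrower range than Ccl2 in both libraries. Ccl6 ranged from 228 to 341 CPM over the 6 OIR states and from 227 to 288 CPM over the 5 control states with more than 1 cell. Ccl12 stood at 797 CPM in OIR Rgs10-led cells and 203 CPM in control ones (84 and 52 UMIs, log2 1.97), where Ccl2 had 9 and 5 UMIs, and at 606 CPM in OIR Prdx1-led cells. The control Rgs10-led level was the lowest of Ccl12 in the 5 control states, against 739 to 1132 CPM in Siglech-led, Klf2-led and rod-RNA-carrying cells. Ccl12 was also called higher in Mmp12-led cells, at 733 CPM in OIR and 212 CPM in control (log2 1.79). Ccl9 was below control in OIR cells of each of these 5 states and was called lower in rod-RNA-carrying cells, at 65.9 CPM in OIR and 171 CPM in control (log2 -1.38). Cxcl16 was above control in OIR cells of all 5, with log2 ratios between 0.48 and 1.02, none of them called.

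**Figure D3:**
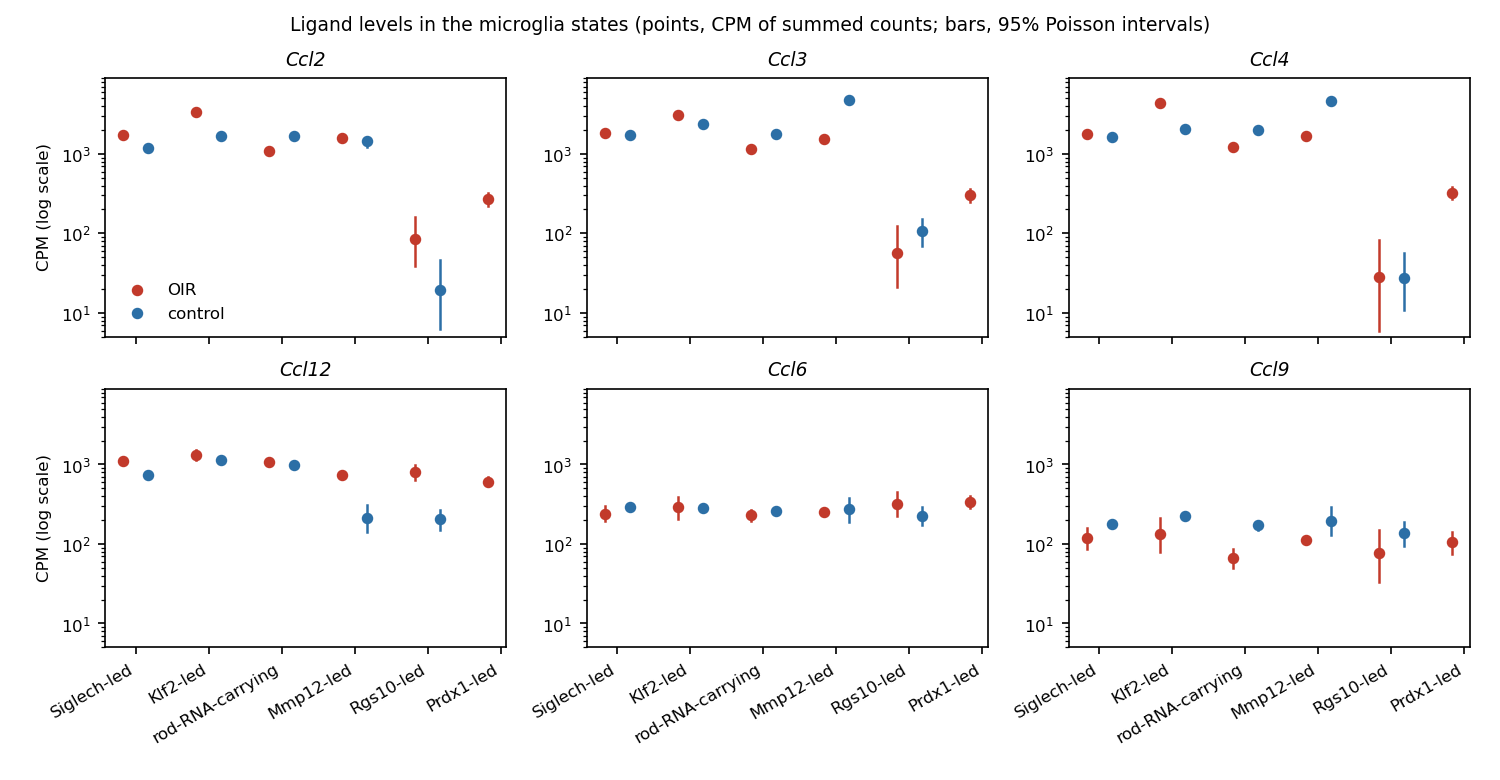
CPM on a log axis (points) with 95% Poisson intervals (bars) for 6 genes in the 6 microglia states, OIR (red) left of control (blue). Ccl2, Ccl3 and Ccl4 are lowest in Rgs10-led and Prdx1-led cells, where Ccl12 is at 203 CPM or more, and Ccl6 stays between 227 and 341 CPM.

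Ccl7 was called higher in 3 of the states. It had 18 UMIs (49.7 CPM) in OIR and 29 UMIs (11.0 CPM) in control Siglech-led cells, the 1 gene called higher there, where 2.73% of genes were, and 0 were called lower (2.11%). In Klf2-led cells, where Ccl4, Ccl7 and Cxcl2 were called higher (5.46% of genes) and 0 genes lower (1.66%), it had 29 UMIs (214 CPM) in OIR and 31 UMIs (13.5 CPM) in control. Both states leaned on few cells: in OIR, 1 of 22 Klf2-led cells held 75.9% of the Ccl7 UMIs and 2 of 48 Siglech-led cells 77.8%. In control, 3 Klf2-led cells held 90.3% and 3 Siglech-led cells 65.5%. Mmp12-led cells had 374 Ccl7 UMIs in OIR and 0 in control, 4.14-fold higher with 3 counts set for the 0 (interval from 3.35-fold). There 3 genes (Ccl7, Ccl12 and Cxcl2) were called higher, where 2.61% of genes were, and 2 lower, where 3.48% were. Rod-RNA-carrying cells had close levels of Ccl7, 50.7 CPM in OIR and 48.1 CPM in control. Cxcl2 had 556 UMIs in OIR and 0 in control Mmp12-led cells, 12 and 9 UMIs in Klf2-led cells, and 0 and 46 UMIs in Siglech-led cells, so it was not above control in every state. In rod-RNA-carrying cells 1 gene, Cxcl2, was called higher (5.11% of genes) and 1, Ccl9, lower (4.68%), and in Rgs10-led cells 2, Ccl2 and Ccl12, were called higher (3.77%) and 0 lower (0.954%).

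The states with little Ccl2, Ccl3 and Ccl4 also had little RNA of the immediate early genes, which respond fast to stimuli and to tissue handling. Their 21 genes summed to 1015 CPM in OIR and 1005 CPM in control Rgs10-led cells and to 784 CPM in OIR Prdx1-led cells. They summed to 30869 CPM in OIR and 41920 CPM in control Klf2-led cells. Genes of NF-kB feedback, which are induced by that inflammatory transcription factor, went the same way, with 228 CPM in OIR and 293 CPM in control Rgs10-led cells and 9534 CPM in OIR and 8442 CPM in control Klf2-led cells. Both low states were also shallow, with medians of 1652 UMIs in OIR and 1737 in control Rgs10-led cells and 2240 in OIR Prdx1-led cells. Klf2 and Rhob of the immediate early list, and Icam1 and Il1a of the NF-kB list, are among the leading genes of the Klf2-led cluster. The high sums of both lists in that state are thus partly set by the clustering. The part of depth or of handling in the ligand levels was not tested. Within cells of 1 state and library, log CPM of Ccl3 and Ccl4 went together in the larger states (Spearman rho 0.58 over 279 control Siglech-led cells, 0.60 over 270 control Klf2-led cells, 0.67 over 206 OIR Mmp12-led cells), while Ccl2 with Ccl6 gave 0.04, 0.02 and 0.08. Cells of a state share library and differ in depth, and rho of Ccl3 with UMIs per cell was 0.15, 0.09 and 0.11 in the same groups.

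Haemoglobin RNA set the libraries apart in the same cells. The 4 haemoglobin genes summed to 7374 CPM in OIR and 15.1 CPM in control Mmp12-led cells, and to 226 and 4.53 CPM in Siglech-led cells. Neutrophil markers summed to 102 CPM in OIR Mmp12-led cells and 0 in control ones, where Cxcl2, a gene that neutrophils also express, had 140 and 0 CPM. The part of either in the ligand ratios was not tested.

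Border macrophage-like cells, led by Pf4, Mrc1 and F13a1, had the most Ccl7 of all classes and the highest Ccl2 in both libraries. Ccl7 stood at 2701 CPM in OIR (2440 UMIs in 81 cells) and 109 CPM in control (26 UMIs in 31 cells), a log2 ratio of 4.63 (4.07 to 5.25). Ccl2 stood at 4009 CPM in OIR and 1928 CPM in control (log2 1.06), and Ccl6 at 355 and 143 CPM (log2 1.31). Cxcl2 had 767 CPM in OIR (693 UMIs) and 33.6 CPM in control (8 UMIs), a log2 ratio of 4.51 (3.53 to 5.73). Cxcl1, almost missing from microglia-like cells, had 32 UMIs in 8 of 81 OIR cells and 0 in 31 control cells. Its level was 2.81-fold higher in OIR with 3 counts set for the 0 (interval from 2.16-fold). Ccl4 was the 1 gene called lower, at 1417 CPM in OIR and 3508 CPM in control (log2 -1.31). Ccl12 was at 2320 and 1890 CPM, Ccl3 at 2046 and 2789 CPM, Ccl9 at 205 and 143 CPM, and Cxcl16 at 211 and 218 CPM, none of them called. In all, 5 of 10 were called higher, where 8.47% of 6639 genes were, and 1 lower, where 11.9% were.

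The control border macrophage-like cells carried much microglia RNA. The 9 border macrophage markers summed to 6024 CPM in OIR and 1105 CPM in control, and the 10 microglia markers to 2819 and 14367 CPM. The median OIR cell had 43 UMIs of its own markers and 20 of microglia markers, and the median control cell 3 and 65. Cells in which microglia-marker UMIs were more than 4 times their own-marker UMIs were then left out, a rule chosen after seeing the data, which left 73 OIR and 12 control cells. Ccl7 stayed at 2859 CPM in OIR and 117 CPM in control (9 UMIs), a log2 ratio of 4.61 (3.68 to 5.74). Cxcl2 stood at 796 and 104 CPM (log2 2.93, 1.95 to 4.15). Ccl2 (4092 CPM in OIR, 2761 CPM in control, log2 0.57), Ccl6 (354 and 195 CPM, 0.86) and Ccl4 (1279 and 1823 CPM, -0.51) were no longer 2-fold apart, and Cxcl1, with 32 UMIs in OIR and 0 in control, gave no ratio at this depth. Ccl9 (206 and 39.1 CPM, 176 and 3 UMIs) and Cxcl16 (213 and 508 CPM, log2 -1.25) now were. The 3 genes called higher (Ccl7, Ccl9 and Cxcl2) stand beside 3.32% of all genes, and the 1 called lower beside 7.06%. Even so, microglia markers still summed to 2569 CPM in OIR and 5248 CPM in control.

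Within the 81 OIR border macrophage-like cells, Ccl7, Ccl2 and Cxcl2 went up and down together from cell to cell, and Ccl6 did not follow them. Spearman's rho between log CPM was 0.75 for Ccl2 with Ccl7, 0.67 for Ccl2 with Ccl3 and 0.52 for Ccl2 with Cxcl2, but 0.13 for Ccl2 with Ccl6. With the summed NF-kB feedback genes, rho was 0.77 for Ccl2, 0.70 for Ccl3, 0.63 for Cxcl2, 0.50 for Ccl7 and -0.05 for Ccl6. These cells share 1 library, and rho of Ccl2 with UMIs per cell was 0.52. Ccl7 was found in 63.0% of the OIR cells. With cells thinned as above it was found in 42 of 69 OIR and 1 of 31 control cells. The top cell held 8.07% of its UMIs, so unlike in microglia-like cells it was not the product of a few.

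Cxcl1 and Cxcl2, the neutrophil attractants, were the genes whose promoters held an NF-kB motif. RefSeq promoters of build GRCm38.p6 were at hand for 6 of the 10 genes (Ccl12, Ccl3, Ccl6, Ccl9, Cxcl1 and Cxcl2). Each is here the 250 bases before the start that RefSeq gives. For Cxcl1, Cxcl2 and Ccl3 that start differs from the gene positions given above, and distances are counted from the RefSeq start. The promoters were searched on both strands for an NF-kB motif (GGGA, any 2 bases, TTCC), a TATA box (TATAAA) and an AP-1 motif (TGANTCA). Of 27025 promoters of that length, 316 hold the first (1.17%), 3504 the second and 1856 the last (6.87%). Cxcl1 (chr5:90890995-90891244, plus strand) and Cxcl2 (chr5:90903649-90903898, plus strand) both hold the 11 bases shown in capitals, which match the NF-kB motif once on each strand, from 71 and 97 bases before the start. Ccl3 (chr11:83649379-83649628, minus strand) is shown for contrast, since it tracked the NF-kB feedback genes from cell to cell as Cxcl2 did and its 250 bases hold none of the 3 motifs. Ccl6 holds none either, Ccl12 holds a TATA box 31 bases before the start, and Ccl9 holds 3 TATA matches and an AP-1 match 53 bases before it. A match describes the letters in this window and is not a site of binding.
Cxcl1: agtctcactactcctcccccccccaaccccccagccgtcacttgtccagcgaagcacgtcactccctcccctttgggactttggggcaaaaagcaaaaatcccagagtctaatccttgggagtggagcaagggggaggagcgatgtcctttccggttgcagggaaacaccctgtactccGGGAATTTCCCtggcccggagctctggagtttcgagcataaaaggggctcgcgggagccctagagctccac
Cxcl2: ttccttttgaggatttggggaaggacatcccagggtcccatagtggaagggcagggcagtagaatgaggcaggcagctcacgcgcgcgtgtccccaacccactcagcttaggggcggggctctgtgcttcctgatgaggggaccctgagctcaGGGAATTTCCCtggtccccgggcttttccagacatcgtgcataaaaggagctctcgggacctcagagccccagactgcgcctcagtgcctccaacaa
Ccl3: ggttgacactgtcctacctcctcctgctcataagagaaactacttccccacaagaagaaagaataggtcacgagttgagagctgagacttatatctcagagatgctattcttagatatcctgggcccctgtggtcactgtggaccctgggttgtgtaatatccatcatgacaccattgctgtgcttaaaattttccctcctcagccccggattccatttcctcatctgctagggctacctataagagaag

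Monocyte-like cells, led by Plac8 and MHC class II genes, had the highest Ccl6 and Ccl9 of the classes described in both libraries. Ccl6 stood at 715 CPM in OIR and 690 CPM in control (log2 0.05, -0.31 to 0.43), and Ccl9 at 283 and 217 CPM (0.38, -0.25 to 1.06). The other genes differed more: Ccl2 had 1222 CPM in OIR (393 UMIs) and 56.2 CPM in control (7 UMIs), Ccl12 had 622 and 104 CPM, and Ccl4 had 1507 and 602 CPM. Ccl3 was at 845 and 481 CPM (not called) and Cxcl16 at 93.2 and 32.1 CPM, where Cxcl16 rests on 30 and 4 UMIs. Ccl7 had 23 UMIs in OIR and 0 in control, Cxcl2 had 16 and 0, of which 1 OIR cell held 14, and Cxcl1 had 0 in both. Of 9 genes measured, 6 were called higher, where 1.89% of all genes were, and 0 lower, where 4.63% were. A single OIR cell with 27872 UMIs held 43.0% of Ccl2, 91.3% of Ccl7, 77.5% of Ccl12, 48.2% of Ccl4 and 53.3% of Cxcl16 UMIs. It had 6 UMIs of monocyte markers beside 181 of microglia markers.

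Of the monocyte-like cells, 5 of 30 in OIR and 4 of 12 in control were led by microglia markers under the rule above, and without them 2 genes, in place of 6, were called higher. Ccl2 then had 21 UMIs in 25 OIR cells and 4 UMIs in 8 control cells, or 105 and 91.1 CPM (log2 0.20, -1.37 to 2.20). Ccl12 had 3 UMIs in OIR and 0 in control, Ccl7 1 and 0, and Cxcl16 4 and 0, too few for a ratio, and Cxcl2 had 16 and 0. Ccl6 kept 917 CPM in OIR and 934 CPM in control, and Ccl9 339 and 364 CPM. Ccl3 had 119 UMIs in OIR and 0 in control, and Ccl4 170 and 0. With 3 counts set for each 0 they were 8.68-fold and 12.4-fold higher (log2 intervals from 2.80 and 3.32). Of these 119 Ccl3 UMIs, however, 104 were in 1 OIR cell. Before the rule, 2 of the 30 OIR cells held 82.7% of 485 Ccl4 UMIs. The first of them, with 234, was left out, so most Ccl4 UMIs kept were in 1 cell too. Ccl3 and Ccl4 were the 2 genes called higher, of 6 measured, where 0.989% of all genes were, and 0 were called lower, where 3.12% were. With 8 control cells, a count of 0 for Ccl3 or Ccl4 is weak ground for a level.

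**Figure D4:**
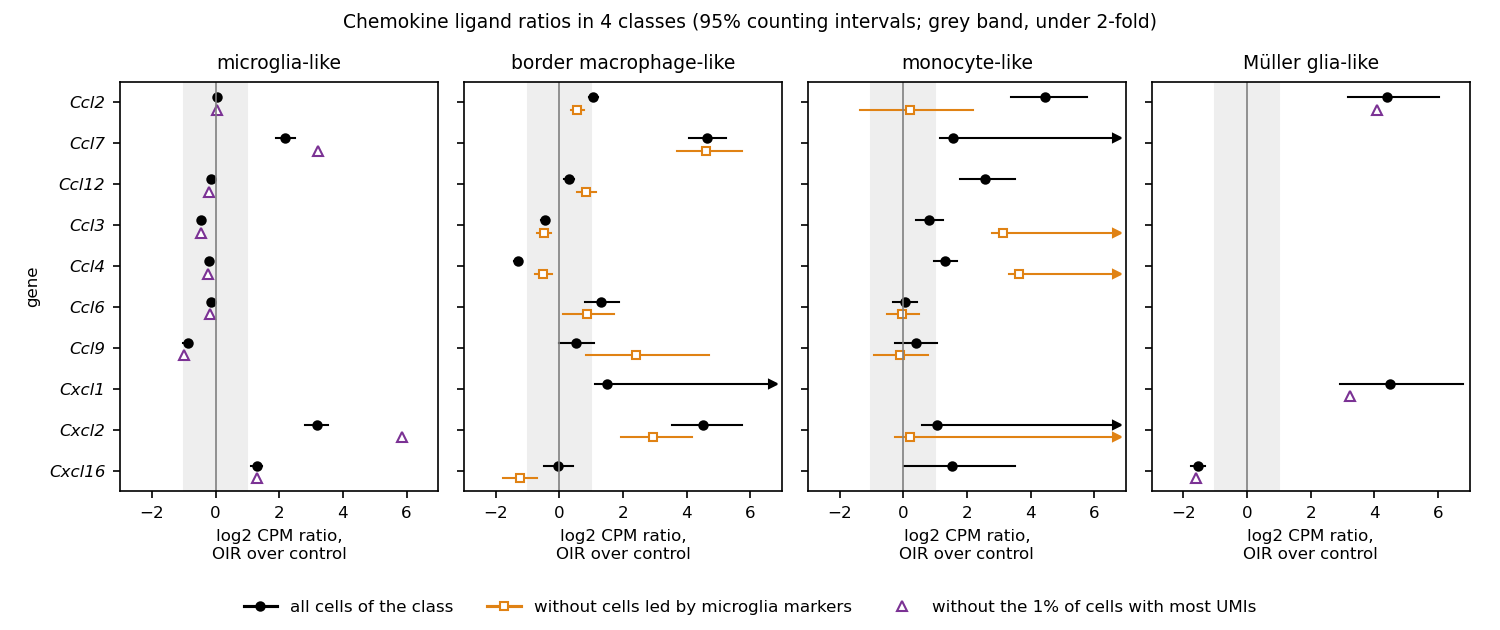
Log2 ratio of CPM, OIR over control (horizontal axis), for each gene in 4 classes, with 95% counting intervals; black points are all cells, orange squares leave out cells led by microglia markers, purple triangles leave out the 1% of cells with most UMIs of the gene, arrows mark intervals with no upper end, and the grey band is under 2-fold. Ccl7 and Cxcl2 stay right of the band in border macrophage-like cells under both sets, while Ccl2 in monocyte-like cells is at 4.44 with all cells and at 0.20 without those led by microglia markers.

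Müller glia-like cells held most Cxcl1 UMIs of the kept OIR cells and a large part of Cxcl16, 15.7% of its UMIs in OIR and 40.2% in control. Cxcl1 stood at 23.4 CPM in OIR (127 UMIs) and 1.04 CPM in control (3 UMIs), a log2 ratio of 4.49 (2.91 to 6.79). They held 52.5% of the 242 Cxcl1 UMIs in kept OIR cells. Ccl2 stood at 36.6 CPM in OIR (199 UMIs) and 1.73 CPM in control (5 UMIs), a log2 ratio of 4.40 (3.15 to 6.04). Cxcl2 stayed under 20 CPM, with 58 UMIs in OIR and 1 in control. So did the other CC genes, with 17 UMIs in OIR and 1 in control for Ccl7, 20 and 2 for Ccl12, 20 and 3 for Ccl3, 22 and 8 for Ccl4, 4 and 2 for Ccl6 and 6 and 4 for Ccl9. Cxcl16 went the other way, at 49.7 CPM in OIR (270 UMIs) and 145 CPM in control (418 UMIs), 2.92-fold higher in control (log2 -1.55, -1.77 to -1.32). Of the 3 genes measured, 2 were called higher, where 3.04% of 6878 genes were, and 1 lower, where 4.74% were.

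Ccl2, Cxcl1 and Cxcl2 sat in few OIR Müller glia-like cells. The top 4 of 392 cells held 67.8% of Ccl2, 58.3% of Cxcl1 and 93.1% of Cxcl2. Without the top 1% of cells in both libraries, Ccl2 was at 11.98 CPM in OIR and 0.704 CPM in control, and Cxcl1 at 9.85 CPM and 0. Neither then reached 20 CPM, and the Ccl2 level was no higher than the 13.2 CPM of OIR rod-like cells, which give the background of free RNA (5.07 CPM in control). Cxcl1 was at 0.413 CPM in OIR rod-like cells and 0 in control ones. There were 9.95 Ccl2 UMIs for each Ccl3 UMI in OIR Müller glia-like cells (interval 6.27 to 16.6), against 1.21 in rod-like cells of OIR (0.926 to 1.58). For Cxcl1 over Ccl3 the ratio was 6.35 in the Müller glia-like cells of OIR and 0.0377 in its rod-like cells. These ratios lean on the top cells: with the top 1% of cells for each gene left out, OIR Müller glia-like cells had 64 Ccl2, 53 Cxcl1 and 16 Ccl3 UMIs. The part of free RNA in these levels was not tested. Under a stricter filter of cells, which left 157 OIR and 30 control cells, Ccl2 had 58 and 0 UMIs and Cxcl1 31 and 0 UMIs, and Cxcl1 was at 12.1 CPM in OIR.

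Among OIR Müller glia-like cells, the summed levels of Ccl2, Cxcl1 and Cxcl2 were higher in those with reactive glia genes. Of the 392 OIR cells, 112 had a UMI of Lcn2 or Serpina3n, both known from reactive glia. In these Ccl2 was at 68.9 CPM, Cxcl1 at 36.7 CPM, Cxcl2 at 22.4 CPM and Cxcl16 at 37.5 CPM. In the 280 cells without such a UMI they were at 10.1, 12.4, 1.01 and 59.7 CPM. The 4 OIR cells with most UMIs of each gene held 67.8% of Ccl2, 58.3% of Cxcl1 and 93.1% of Cxcl2, and the split was not repeated without them. The 112 cells were deeper, with a median of 19149 UMIs against 8286.5 UMIs in the 280, so cells sorted by a UMI are also sorted by depth. In control 5 of 261 cells had such a UMI, and they had 0 UMIs of Ccl2.

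Cxcl16 in Müller glia-like cells was spread over many cells in both libraries. The top 1% of cells held 9.63% of its UMIs in OIR and 4.31% in control, and after thinning it had a UMI in 36 of 356 OIR cells (10.1%; 41.6% before thinning) and 66 of 252 control cells (26.2%; 70.9% before). Without the top 1% of cells its level was 46.0 CPM in OIR and 141 CPM in control. Zmynd15, the gene on the opposite strand, had 2.76 CPM in OIR and 6.59 CPM in control. Müller glia markers were lower in the same OIR cells: they summed to 7456 CPM in OIR and 16190 CPM in control, with Rlbp1 at 961 and 2637 CPM and Aqp4 at 181 and 591 CPM, and 5 of the 9 were called lower. Whether the lower Cxcl16 goes with the lower marker RNA was not tested. The ratio of Cxcl16 thus had opposite signs in Müller glia-like cells (-1.55) and in microglia-like cells (1.30), and that difference was not tested.

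**Figure D5:**
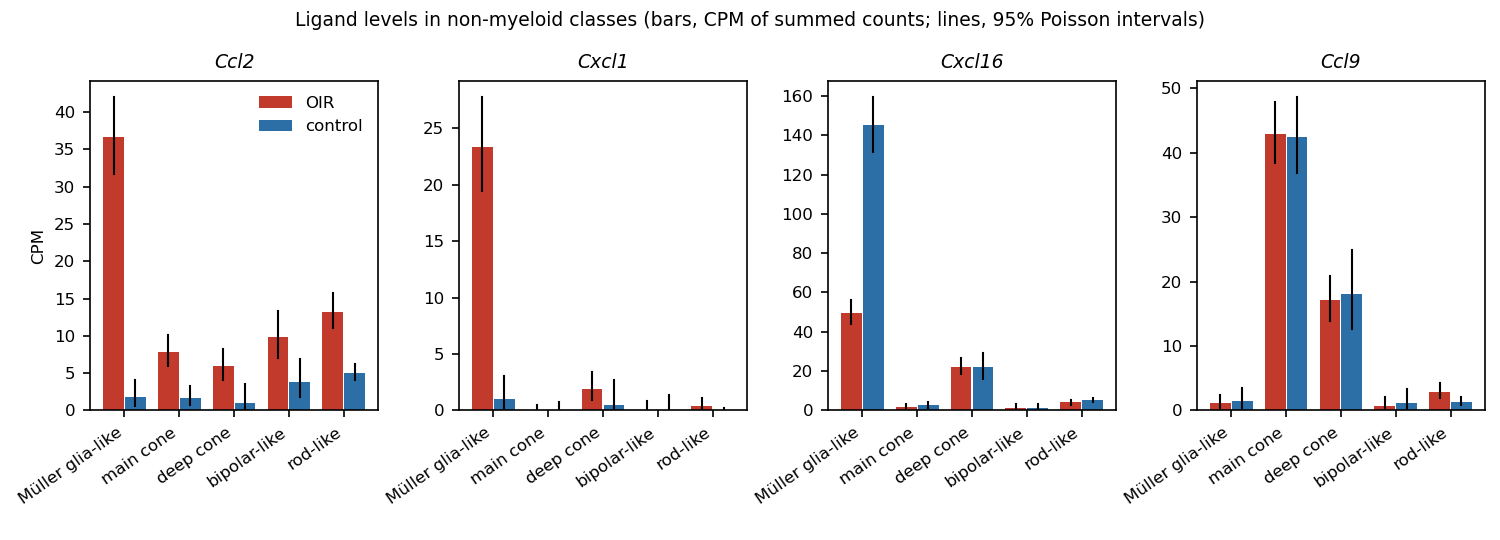
CPM (bars, axes from 0) with 95% Poisson intervals (lines) of 4 genes in non-myeloid classes, OIR (red) left of control (blue). Ccl2 and Cxcl1 are higher in OIR Müller glia-like cells, Cxcl16 is at 49.7 CPM in OIR and 145 CPM in control ones, and Ccl9 is at 42.9 CPM in OIR and 42.5 CPM in control cells of the main cone cluster.

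Cone-like cells had Ccl9 with little Ccl6. Ccl9 stood at 31.7 CPM in OIR (416 UMIs) and 35.2 CPM in control (241 UMIs), a log2 ratio of -0.15 (-0.38 to 0.08). It was the 1 gene of the 10 measured in this class and was not called, where 1.78% of 6614 genes were called higher and 0.136% lower. Ccl6, which accompanied it in every myeloid class, had 6 UMIs in OIR and 4 in control cones, so there were 69.3 Ccl9 UMIs for each Ccl6 UMI in OIR cones and 60.2 in control cones, against 0.412 and 0.686 in microglia-like cells and 2 and 1.71 in rod-like cells. The level was 42.9 CPM in OIR and 42.5 CPM in control in the main cone cluster, and 17.1 and 18.05 CPM in a deeper cone cluster. Rod-like cells had 2.89 and 1.35 CPM and bipolar-like cells 0.702 and 1.12 CPM. After thinning, 39 of 750 OIR cones (5.2%) and 31 of 324 control cones (9.57%) had a Ccl9 UMI, against 13 of 1601 OIR and 4 of 2945 control rod-like cells. The top 1% of cones held 7.69% of the UMIs in OIR and 6.64% in control. Gm33246, the gene that shares a run of bases with Ccl9, was not examined in these cells.

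The deeper cone cluster also had Cxcl16, at 22.3 CPM in OIR and 21.9 CPM in control, against 1.89 and 2.50 CPM in the main cone cluster. This cluster carried Müller glia RNA, with Aqp4 at 68.3 CPM in OIR and 82.4 CPM in control, against 0.405 and 1.04 CPM in the main cone cluster, and had medians of 30829 and 31202.5 UMIs. The part of that RNA in its Cxcl16 was not tested.

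Neutrophil-like cells, 17 in OIR and 11 in control, were the control class with the highest Cxcl2. Cxcl2 stood at 723 CPM in OIR (161 UMIs) and 1063 CPM in control (125 UMIs), a log2 ratio of -0.56 (-0.90 to -0.21), and these few cells held 7.85% of its UMIs in OIR and 59.0% in control. It was found in 14 of the 17 OIR and 7 of the 11 control cells. Cxcl1 had 0 UMIs in either, which allows up to 13.5 CPM in OIR and 25.5 CPM in control. Of 9 genes measured, 2 were called higher (Ccl7 and Ccl12), where 3.56% of genes were, and 1 lower (Ccl9), where 6.49% were. Microglia markers summed to 7408 CPM in OIR and 16293 CPM in control neutrophil-like cells, so their Ccl genes cannot be told apart from microglia RNA.

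Cycling myeloid cells, led by Ube2c, Top2a and Mki67, numbered 58 in OIR and 6 in control. Their OIR levels lay between those of microglia-like and border macrophage-like cells for Ccl7 (566 CPM, 418 UMIs), Cxcl2 (644 CPM, 476 UMIs) and Ccl2 (1829 CPM), and they held 418 of the 3485 Ccl7 and 476 of the 2051 Cxcl2 UMIs in kept OIR cells. Of 9 genes measured, 5 were called higher, where 1.29% of genes were, and 0 lower, where 3.82% were, with 44805 UMIs in all on the control side. A cluster led by vascular genes (Cldn5, Rgs5), with 15 OIR and 49 control cells, had Cxcl1 at 122 CPM in OIR (49 UMIs) and 12.7 CPM in control (9 UMIs), but 1 OIR cell held 81.6% of it.

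The receptors Ccr2 and Cxcr2 were found on monocyte-like and neutrophil-like cells. Ccr2, the receptor of Ccl2, Ccl7 and Ccl12, was at 264 CPM in OIR and 185 CPM in control monocyte-like cells and at 0.522 and 0.307 CPM in microglia-like cells. Cxcr2 was at 171 CPM in OIR and 179 CPM in control neutrophil-like cells. Ccr1 was at 415 CPM in OIR and 176 CPM in control border macrophage-like cells (log2 1.23, called). Of these 31 control cells, 19 were led by microglia markers, and the Ccr1 ratio was not repeated without such cells. Cxcr6, the receptor of Cxcl16, had 3 UMIs in OIR and 1 in control microglia-like cells. Cx3cr1, the fractalkine receptor of microglia, was at 1621 and 2939 CPM (log2 -0.86), and its ligand Cx3cl1 had 4 and 2 UMIs there.

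Other chemokine ligands that reached 20 CPM in microglia-like cells were all higher in OIR. Of 27 found in the files, 4 reached 20 CPM and all 4 were called higher, with a median log2 ratio of 3.25. Of all genes measured in the class, 4.85% were called higher and 5.24% lower, which is the share to read this count and the next 3 lists against. They were Cxcl14 (33.4 CPM in OIR, 1.07 in control), Pf4 (102 and 3.84 CPM), Ccl5 (83.8 and 24.5 CPM) and the interferon-induced Cxcl10 (57.6 and 24.1 CPM). Pf4 also led the border macrophage-like cluster, where it was at 7674 CPM in OIR and 344 CPM in control. Ccl8 had 76 UMIs in OIR and 0 in control border macrophage-like cells, and Ccl24 had 162 and 6. In the same class Ccl5 was called lower, at 112 CPM in OIR and 437 CPM in control (log2 -1.97), and Cxcl10 was not called, at 405 and 336 CPM. The levels of these other ligands in border macrophage-like cells were not repeated without the cells led by microglia markers. Of the 19 immediate early genes measured in microglia-like cells, 0 were called higher and 11 lower (median log2 -1.16), with Klf2 at 658 CPM in OIR and 2463 CPM in control, Btg2 at 719 and 2441 CPM and Rhob at 747 and 2106 CPM. NF-kB feedback genes had 2 of 19 called higher (one of them Bcl3, 20.9 and 5.37 CPM) and 4 lower (median -0.85), with Icam1 at 211 and 599 CPM and Zfp36 at 948 and 2137 CPM. The cytokine genes Tnf, Il1b and Il1a were at 243, 179 and 191 CPM in OIR and at 191, 144 and 384 CPM in control. Homeostatic microglia genes had 10 of 16 called lower and 0 higher (median -1.18), with Tmem119 at 169 and 618 CPM, Selplg at 540 and 1901 CPM and P2ry13 at 87.1 and 262 CPM.

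Across 30 sums of a class or state in 1 library, the most similar partners of each gene were sought among 9370 genes. By Pearson correlation of log2(CPM + 1), Ccl2 was most like Ccl4 (0.95), Ccl3 (0.95) and Runx1 (0.95), and Ccl3 like Cd84 (0.98), P2ry6 (0.98) and Cx3cr1 (0.98). Ccl4 was most like Neurl3 (0.97), Ccl12 like Pld4, Sla and Lrrc25 (each 0.98), Ccl6 like Lst1, Fermt3 and Cd53 (each 0.99), and Ccl9 like Spint1 (0.97). Ccl7 was most like Tmem106a (0.90), Tnf (0.90) and Ifi204 (0.88), and Cxcl2 like Cxcl10 (0.90), Lilrb4a (0.88) and Ccl7 (0.86). Cxcl16 was most like Tnfaip8, Axl and Ctsh (each 0.92). Cxcl1 had the loosest partners, Cd38 (0.76), Vcam1 (0.75) and Rcn3 (0.70). The sums share libraries and differ in depth.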

How the data were processed

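Droplet RNA counts of 2 libraries were analysed, 1 OIR and 1 control, each from the retinas of 6 mice. The authors deposited whole-number UMI counts of each gene in each barcode, made with Cell Ranger 3.0.2 on build mm10, per the submitters' processing notes. The members and the other gene lists were chosen with earlier results of these data known.

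A barcode passed with 500 or more genes and no more than 10% mitochondrial UMIs (6516 in OIR, 9454 in control). The automatic doublet threshold marked 0 OIR and 1 control barcodes and had not worked, so the top-scoring 424 (5.82%) in OIR and 938 (8.66%) in control were taken out instead. Of all barcodes, 89 stood in both libraries. Cells were clustered with scanpy 1.11.5 and leidenalg 0.10.2 (2000 variable genes without chemokine ligands, 30 components, 20 neighbours, resolution 1). Myeloid cells were then clustered again on their own, a step chosen after seeing the data, and clusters were named from marker lists.

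Counts were summed per class and library. Levels have exact Poisson intervals, log2 ratios exact conditional binomial ones and shares of cells exact Clopper-Pearson ones. In ratios, 3 counts stood in for a 0. No test between groups was made, since each is 1 library. Levels are compared between classes for 1 gene at a time. All 10 genes are described in each main class, and from each other list the 3 genes with the largest log2 ratio were taken, beside receptors and cytokines; some genes of these lists are not reported here. On counts simulated with counting error only, for 5660 genes of microglia-like cells, the call found 0 of 50 genes changed 1.5-fold, 50 of 50 changed 3-fold and 0 of 5460 unchanged ones. Such counts hold no spread between cells or libraries, so they do not give the rate of false calls in these data. Gene positions are from GENCODE on mm10 and promoters from RefSeq (GRCm38.p6). Python 3.11.15, numpy 2.4.6, scipy 1.17.1 and pandas 2.3.3 were used.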

Additional observations from a re-analysis of the deposited data

Results flagged for a closer look

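Among the 4 main classes and the 6 microglia states, 2 of the 10 genes lay at least 2-fold apart in opposite directions in different cells. The log2 ratio of Ccl4, OIR over control, was 1.33 in monocyte-like cells and 1.11 in the Klf2-led microglia state, but -1.31 in border macrophage-like cells and -1.47 in the Mmp12-led state. Of the 30 OIR monocyte-like cells, 2 held 82.7% of the Ccl4 UMIs. The ratio of Cxcl16 was 1.30 in microglia-like cells and 1.54 in monocyte-like cells, but -1.55 in Müller glia-like cells. The difference between classes was not tested for either gene, because each group is 1 library. Without the cells led by microglia markers, Ccl4 in border macrophage-like cells was at -0.51, and Cxcl16 in monocyte-like cells, whose 1.54 rests on 30 UMIs in OIR (53.3% of them in 1 cell) and 4 in control, had 4 and 0 UMIs and no ratio. With the smaller clusters, Ccl3 and Ccl12 also went both ways. Ccl3 was at 5.94 in cycling myeloid cells (1010 UMIs in OIR, 1 in control) and at -1.63 in the Mmp12-led state. Ccl12 was higher in OIR in monocyte-like cells (2.58) and had 0 UMIs in OIR and 18 in control cells of the cluster led by vascular genes. Each side leaned on 1 cell, which held 77.5% of the OIR monocyte-like UMIs and 88.9% of those 18. Without the cells led by microglia markers, monocyte-like Ccl12 had 3 UMIs in OIR and 0 in control and no ratio.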

How the results depend on the processing

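In microglia-like cells, where 3 of the 10 genes were higher in OIR and 0 lower, resolution 0.5 gave 1 higher and 1 lower, a single clustering of all cells 1 lower, and leaving out the Mmp12-led state 1 higher and 1 lower. In border macrophage-like cells (5 higher, 1 lower), the counts were 3 higher and 0 lower at resolution 0.5 and with a single clustering, 0 lower with doublet scores ignored, and 3 higher with a mean over cells or without cells led by microglia markers. With the single clustering (62 OIR and 3 control cells) Ccl2 was at -0.10, Ccl4 at 0.24 and Ccl6 at -0.20, the reverse of their main log2 ratios. In monocyte-like cells (6 higher), 3 were higher without the top 1% of cells and 2 without cells led by microglia markers. In Müller glia-like cells (2 higher), 6 were higher with no minimum level, 0 without the top 1% of cells, and 1 under the stricter filter (at least 1000 genes, at most 5% mitochondrial UMIs), with doublets ignored, at resolution 0.5 or with chemokines kept in the clustering. The microglia-like class held 382 OIR cells at resolution 0.5 and 451 with the single clustering, against 586 in the main one. In both settings a cluster with Spp1, Mmp12 and Lgals3 among its leading genes lay outside the class. With doublets ignored, the Müller glia-like class held 52 OIR and 198 control cells. The cause of the shifts in these counts was not tested. The other 68 values of these counts stayed within 1.5 times.

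Over its alternatives the log2 ratio of Ccl7 ranged between 1.54 and 3.23 in microglia-like and between 2.76 and 5.05 in border macrophage-like cells, and that of Cxcl16 in Müller glia-like cells between -2.13 and -1.04. Median-of-ratios scaling moved all genes of microglia-like cells by 0.10. The single clustering and the rules on microglia markers were added after seeing the data, and the single clustering gave no monocyte-like cells. No paired analysis was possible because each group is 1 library and no test was made. The 12 control monocyte-like and 31 control border macrophage-like cells limit what their levels can show.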
